A study of Mus musculus with 2 samples.

Results

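The ligands of the tumour necrosis factor (TNF) superfamily were measured as mRNA in mouse CD4 T cells under 2 culture conditions. The 10 genes are Tnf, Lta, Ltb, Tnfsf4, Tnfsf8, Tnfsf10, Tnfsf11, Tnfsf14, Fasl and Cd40lg, and they were found through the RefSeq accession of each non-control probe. They had 12 of the 41174 probes on the array and made up 10 of its 18434 named genes. All 12 probes were flagged as well above background by the scanner software on each array, which is called detected below, so none of the 10 genes was left out.

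The cells were splenic CD4 T cells of the inbred C57BL/6 mouse strain and carried no genetic change by the labels. Antibodies to the T cell receptor and to CD28 stimulated them for 2 days, and culture went on for 3 days to a total of 5. Th9+IFNgamma cells received IL-4 (3 ng/ml), TGFbeta (3 ng/ml) and IFNgamma (10 ng/ml). Th9 cells received IL-4 (10 ng/ml), TGFbeta (3 ng/ml) and an antibody to IFNgamma (1 µg/ml), conditions under which T cells come to make IL-9. The conditions therefore differed in IFNgamma, in the dose of IL-4 and in the antibody, and these cannot be told apart. There was 1 single-colour array for each condition and no replicate, so every difference below is a size without a test. Both arrays lay on 1 slide and were read in 1 scan.

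TNF superfamily ligands are mostly membrane proteins that assemble as trimers and bind receptors of the TNF receptor superfamily on neighbouring cells. Some of these receptors recruit TRAF adaptors and switch on NF-kappaB, and others carry a death domain that can start apoptosis. In helper T cells the ligands are made after activation through the T cell receptor, and different helper lineages make different sets of them.

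Scaled signals are the scanner's processed intensities set to the same 75th percentile on both arrays, and they compare 1 probe between the arrays, never 1 probe with another. Among the 10 ligands, 4 were higher by at least 2-fold in Th9+IFNgamma cells, namely Tnf, Tnfsf11, Lta and Ltb, and 1 was at least 2-fold lower, namely Tnfsf14. The other 5 lay within 2-fold. The widest difference was that of Tnfsf14, which was 11.0-fold lower in Th9+IFNgamma cells. For comparison, 12272 genes of the array were detected in both cultures, and in Th9+IFNgamma cells 5.15% of these passed 2-fold upwards and 7.42% passed it downwards. The median log2 difference was 0.65 over the ligands and -0.01 over all measured genes.

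**Figure D1:**
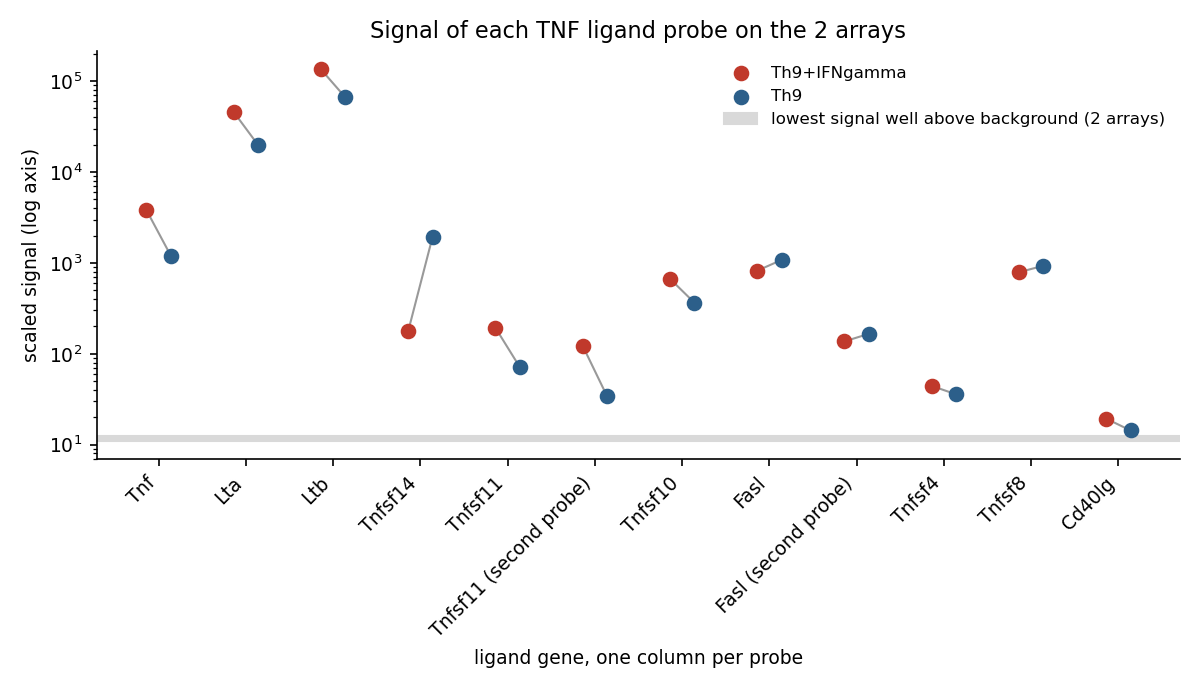
Scaled signal (log axis) of each of the 12 ligand probes, with the Th9+IFNgamma array (red) left of the Th9 array (blue) in each column. The grey band spans the lowest detected signals, 11.1 for Th9+IFNgamma and 12.5 for Th9, and the Cd40lg probe lies just above it. Heights compare the arrays within a column, not the columns with each other.

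Tnf, Lta and Ltb stand next to each other on mouse chromosome 17, with 1 microRNA gene annotated between Ltb and Tnf, and all 3 were higher in Th9+IFNgamma cells. The RefSeq table of assembly GRCm38.p6 held a promoter for 8 of the 10 ligands. The 250 bases before the start of Tnf and Ltb are shown because these neighbours were higher together, and those of Tnfsf14, elsewhere on the same chromosome, because that gene differed in the opposite direction. Capitals mark matches, on either strand, to any of 6 motifs searched, which were TTCNNNGAA (a STAT-type palindrome), GGTGTGA (a T-box core site), TGANTCA (an AP-1 type site), GGAAAA (an NFAT-type core), an interferon-stimulated response element and an NF-kappaB site. The Tnf window is chr17:35202008-35202257 on the minus strand, the Ltb window chr17:35194257-35194506 on the plus strand and the Tnfsf14 window chr17:57194182-57194431 on the minus strand, each written 5′ to 3′ along its gene.
Tnf: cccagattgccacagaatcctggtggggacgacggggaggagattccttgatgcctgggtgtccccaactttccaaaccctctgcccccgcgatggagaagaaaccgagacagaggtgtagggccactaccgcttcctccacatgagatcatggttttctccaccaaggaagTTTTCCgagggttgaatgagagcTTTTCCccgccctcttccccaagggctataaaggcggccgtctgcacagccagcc
Ltb: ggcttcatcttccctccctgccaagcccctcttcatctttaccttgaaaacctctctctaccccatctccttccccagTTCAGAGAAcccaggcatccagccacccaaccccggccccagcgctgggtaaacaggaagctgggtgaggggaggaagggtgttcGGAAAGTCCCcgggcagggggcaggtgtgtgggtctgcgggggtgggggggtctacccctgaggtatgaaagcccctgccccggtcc
Tnfsf14: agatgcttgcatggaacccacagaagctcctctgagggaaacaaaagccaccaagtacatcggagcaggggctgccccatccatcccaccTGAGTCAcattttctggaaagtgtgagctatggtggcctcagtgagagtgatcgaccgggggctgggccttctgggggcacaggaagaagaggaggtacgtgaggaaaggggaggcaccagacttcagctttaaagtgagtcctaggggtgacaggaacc

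The Tnf window held GGAAAA at 2 places, both read on the opposite strand, from -78 to -73 and from -55 to -50 relative to the start. Among 32851 promoter windows of the same length, 20.4% held that motif. The Ltb window held TTCNNNGAA from -172 to -164, a motif found in 7.02% of windows, and the NF-kappaB motif on the opposite strand from -87 to -78, found in 1.41%. The Lta window also held TTCNNNGAA, at 2 places from -152 to -144 and from -16 to -8, but 227 of its 250 bases lie inside the annotated span of the gene, so its letters are not shown. In the Tnfsf14 window the only match was TGANTCA, from -160 to -154, which 6.75% of windows held. The Fasl window held GGAAAA once, and the windows of Tnfsf8, Tnfsf10 and Tnfsf11 held none of the 6 motifs. Of the Tnfsf8 window, as of that of Lta, most bases (224 of 250) lie inside the annotated span of the gene. GGTGTGA and the interferon-stimulated response element, present in 3.33% and 2.98% of all windows, matched none of the 8 ligand windows. These matches describe letters and do not show that a factor binds there.

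Tnf encodes the founding member of the family, an inflammatory cytokine that acts in membrane-bound and shed form on both TNF receptors. Its scaled signal was 3815 in Th9+IFNgamma cells and 1200 in Th9 cells. The Th9+IFNgamma signal was therefore 3.18-fold higher, a log2 difference of 1.67 with a scanner software error of 0.20. The probe was printed at 10 spots per array, and these ran from 3641 to 4015 (median 3808) in Th9+IFNgamma cells and from 1144 to 1264 (median 1203) in Th9 cells. The spots of the arrays did not overlap, and the SD of the log2 difference over spot pairs was 0.05. This spread covers printing and reading of the array, and none of the variation between mice or cultures. Of all measured genes, 231 (1.88%) were at least as far towards Th9+IFNgamma as Tnf.

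Lta encodes lymphotoxin alpha, which acts as a secreted trimer on the TNF receptors and, joined with lymphotoxin beta, on the lymphotoxin beta receptor. Its signal was 45831 in Th9+IFNgamma cells and 19847 in Th9 cells, 2.31-fold higher (log2 difference 1.21, software error 0.20). The spots ran from 42758 to 48089 (median 45653) on the Th9+IFNgamma array. On the Th9 array 8 spots ran from 19413 to 20344 (median 19719), and the other 2 of its 10 spots had been called outliers by the scanner software and were left out. Here too the spots of the arrays did not overlap.

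Ltb encodes lymphotoxin beta, the membrane subunit that holds lymphotoxin alpha at the cell surface. It was read by 1 spot at 134935 in Th9+IFNgamma cells and 66360 in Th9 cells. The signal was 2.03-fold higher, a log2 difference of 1.02 with a software error of 0.20, so that Ltb lies at the 2-fold threshold within that error. Over the 3 neighbours the order of the differences was Tnf, Lta, Ltb. The software error was 0.20 for Tnf, Lta and Ltb alike and is not a spread measured over spots. Over probes of such brightness printed several times, the SD of single-spot log2 differences was 0.045. Whether Lta and Ltb differ in the size of their difference was not tested.

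**Figure D2:**
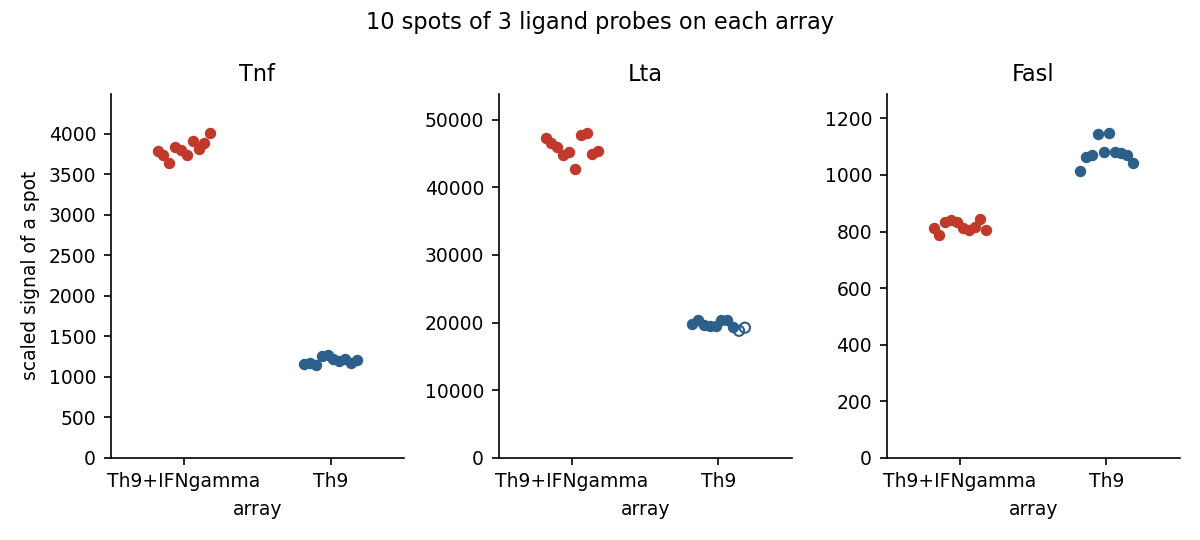
Scaled signal of each spot (linear axis from 0) for the Tnf, Lta and Fasl probes, each printed 10 times per array, with Th9+IFNgamma at left and Th9 at right. Open circles are the 2 Lta spots called outliers. For each of the 3 probes the spots of the arrays occupy separate ranges, with Tnf and Lta higher and Fasl lower in Th9+IFNgamma.

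Tnfsf14 encodes LIGHT, a costimulatory ligand of activated T cells that binds the herpesvirus entry mediator and the lymphotoxin beta receptor. It was read by 1 spot at 176 in Th9+IFNgamma cells and 1932 in Th9 cells. The signal was 11.0-fold lower in Th9+IFNgamma cells, with a log2 difference of -3.45 and a software error of 0.20. Both readings were far above the lowest detected signal of their array, by 15.9-fold in Th9+IFNgamma cells and 154-fold in Th9 cells. Of the 12272 measured genes, 58 (0.473%), Tnfsf14 included, were at least as far towards Th9. LIGHT shares the lymphotoxin beta receptor with the lymphotoxins, whose genes differed in the opposite direction.

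Tnfsf11 encodes RANKL, the ligand of RANK, which drives osteoclast formation and lymph node development. Its brighter probe read 193 in Th9+IFNgamma cells and 71.3 in Th9 cells, 2.71-fold higher (log2 difference 1.44, software error 0.21). Its other probe read 123 in Th9+IFNgamma cells and 34.1 in Th9 cells, 3.59-fold higher (log2 difference 1.85, software error 0.23). Both probes had the same sign and passed 2-fold. With normexp background correction, which compresses dim signals, the log2 differences were 0.86 and 0.84, under 2-fold for both probes. The direction was therefore the same, and the size depends on how background is treated.

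Tnfsf10 and Fasl encode the death ligands TRAIL and Fas ligand, which can start apoptosis in cells that carry their receptors. Tnfsf10 read 670 in Th9+IFNgamma cells and 365 in Th9 cells, 1.83-fold higher (log2 difference 0.87, software error 0.20). It lay just under the 2-fold threshold, as Ltb lay just over it. Fasl read 819 in Th9+IFNgamma cells and 1078 in Th9 cells by its brighter probe, 1.32-fold lower (log2 difference -0.40, software error 0.20). The 10 spots of that probe ran from 788 to 843 (median 815) in Th9+IFNgamma cells and from 1014 to 1150 (median 1074) in Th9 cells. The Fasl spots did not overlap, although the difference was small, and their pairwise log2 differences ran from -0.50 to -0.32. The second Fasl probe read 137 in Th9+IFNgamma cells and 166 in Th9 cells, 1.21-fold lower (log2 difference -0.28, software error 0.21). The death ligands thus had opposite signs, with neither past 2-fold, and the difference of the second Fasl probe was near its software error.

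Tnfsf4, Tnfsf8 and Cd40lg encode OX40 ligand, CD30 ligand and CD40 ligand, which act in costimulation between T cells and antigen-presenting cells. Tnfsf4 read 44.3 in Th9+IFNgamma cells and 35.8 in Th9 cells, 1.24-fold higher (log2 difference 0.31, software error 0.24). Tnfsf8 read 790 in Th9+IFNgamma cells and 928 in Th9 cells, 1.18-fold lower (log2 difference -0.23, software error 0.20). Cd40lg, through which helper T cells activate B cells, read 19.4 in Th9+IFNgamma cells and 14.3 in Th9 cells, 1.35-fold higher (log2 difference 0.43, software error 0.38). The Cd40lg signal was only 1.74-fold above the lowest detected signal in Th9+IFNgamma cells and 1.14-fold above it in Th9 cells, and normexp turned the difference to -0.06. For these 3 ligands the differences were of about the size of the software error, and no direction is drawn from them.

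**Figure D3:**
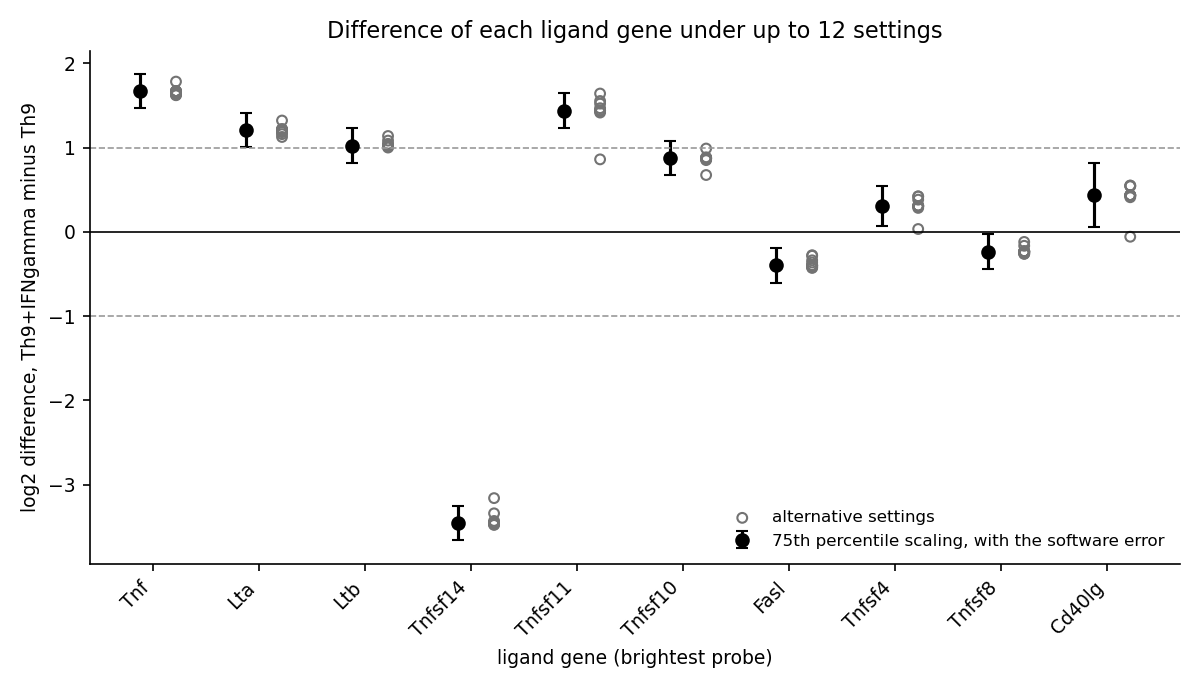
Log2 difference (Th9+IFNgamma minus Th9) of each ligand gene by its brightest probe, except at settings that change the choice of probe. Those settings can draw on the second probe of Tnfsf11 and Fasl. Filled points are values at 75th percentile scaling with the software error as bars, and open circles are the alternative settings, with dashed lines at 2-fold. Tnf, Lta, Ltb and Tnfsf14 lie beyond 2-fold at every setting shown, Tnfsf11 at all but normexp, and the other 5 ligands at none.

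In the plot of all genes by signal, the ligands are spread over the whole signal range. Among genes with a mean log2 signal within 1 unit of that of Tnf, 36 of 3142 were at least as far towards Th9+IFNgamma. For Lta this was 21 of 698, for Ltb 7 of 211 and for Tnfsf11 83 of 1824. Around Tnfsf14, 16 of 2673 genes were at least as far towards Th9. As shares these were 1.15% for Tnf and 0.599% for Tnfsf14, the smallest of the 10 ligands. Tnfsf8 and Fasl lay inside the bulk, with 29.2% and 18.9% of genes of like signal at least as low.

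**Figure D4:**
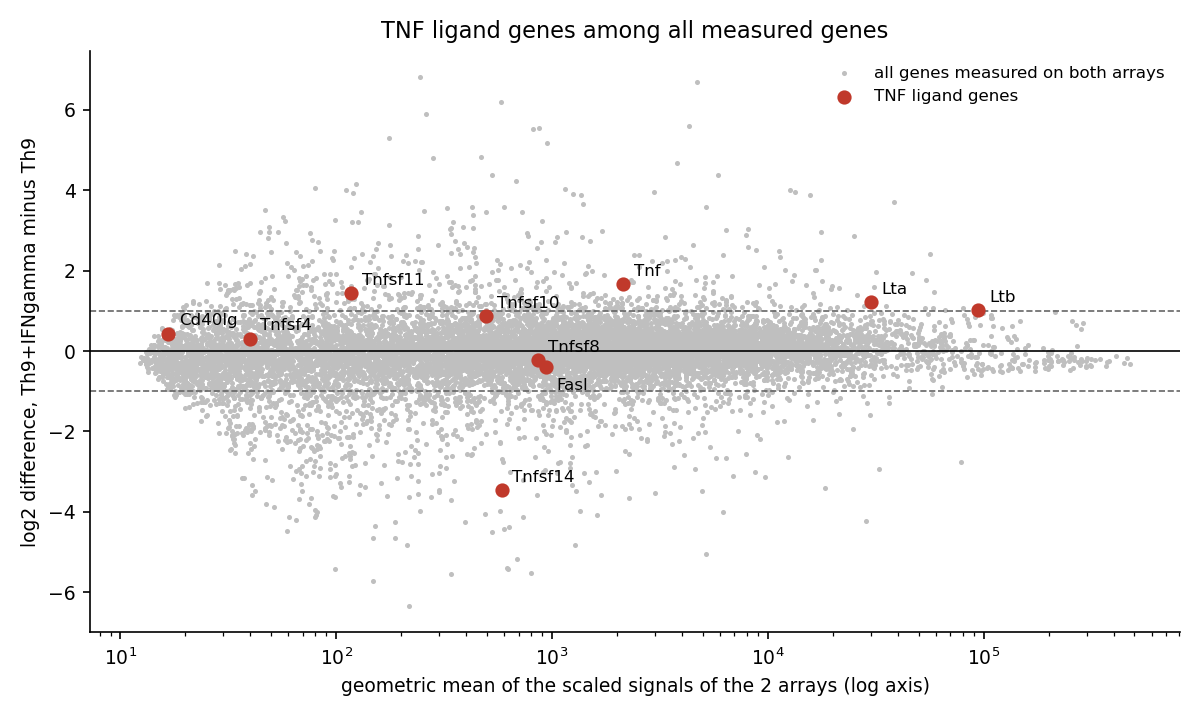
Log2 difference (Th9+IFNgamma minus Th9) against the geometric mean signal (log axis) for all 12272 measured genes in grey and the 10 ligand genes in red, with dashed lines at 2-fold. Tnfsf14 lies far below the bulk at -3.45 and Tnf above it at 1.67, while Tnfsf8 and Fasl lie within the bulk.

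Another 8 ligand genes of the superfamily were looked up, and 7 had a named probe. Of these, 2 were detected on both arrays and 5 on neither, namely Tnfsf12, Tnfsf15, Tnfsf18, Cd70 and Eda. Tnfsf13b encodes BAFF, a survival factor for B cells. It read 342 in Th9+IFNgamma cells and 5365 in Th9 cells, 15.7-fold lower (12.9-fold with normexp), a difference in the direction of Tnfsf14. Tnfsf9, which encodes the ligand of 4-1BB, read 67.1 in Th9+IFNgamma cells and 79.3 in Th9 cells, 1.18-fold lower.

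The receptors of the ligands were set beside them. Of 13 receptor genes, 10 were detected on both arrays, of which none was at least 2-fold higher, 1 was at least 2-fold lower and 9 lay within 2-fold. Their median log2 difference was 0.04. Across the array, 5.15% of measured genes passed 2-fold upwards and 7.42% passed it downwards. Receptor counts were not tested against these shares, and 10 genes are few for such a comparison. The receptor gene that passed 2-fold downwards was Tnfrsf8, which encodes CD30, the receptor of the Tnfsf8 product. It read 19.1 in Th9+IFNgamma cells and 332 in Th9 cells, 17.4-fold lower (5.40-fold with normexp), whereas its ligand lay within 2-fold. Tnfrsf11a, which encodes the RANKL receptor RANK, was detected in Th9+IFNgamma cells alone. It read 169 there, at least 13.5-fold above the lowest detected signal of the Th9 array (a bound of 3.11-fold with normexp). Its second probe gave at least 2.54-fold. The receptor and the ligand of the RANK pair were therefore both higher in Th9+IFNgamma cells.

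The receptors of Tnf and the lymphotoxins showed no such difference. Tnfrsf1a read 2877 in Th9+IFNgamma cells and 2736 in Th9 cells, and Tnfrsf1b read 2475 in Th9+IFNgamma cells and 2289 in Th9 cells. Ltbr, the lymphotoxin beta receptor gene, was dim at 62.4 in Th9+IFNgamma cells and 72.4 in Th9 cells. Tnfrsf14, which encodes the herpesvirus entry mediator and binds LIGHT, read 93.5 in Th9+IFNgamma cells and 57.8 in Th9 cells. It was 1.62-fold higher (1.34-fold with normexp) while its ligand was lower. Fas, the death receptor for Fas ligand, read 3809 in Th9+IFNgamma cells and 1974 in Th9 cells, 1.93-fold higher. A second Fas probe gave 2.53-fold, so the probes fell on either side of the threshold. Tnfrsf10b, the mouse TRAIL receptor gene, was 1.60-fold lower in Th9+IFNgamma cells by its brightest probe (1.34-fold with normexp), opposite in sign to Tnfsf10. A second Tnfrsf10b probe gave 1.47-fold lower. The third was detected in Th9 cells alone and gave a bound of 1.88-fold lower. Tnfrsf4, which encodes OX40, read 64902 in Th9+IFNgamma cells and 64843 in Th9 cells. Cd40 read 1113 in Th9+IFNgamma cells and 921 in Th9 cells, and Tnfrsf22, a decoy TRAIL receptor gene, was 1.13-fold lower. Tnfrsf11b and Tnfrsf23 were detected on neither array.

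**Figure D5:**
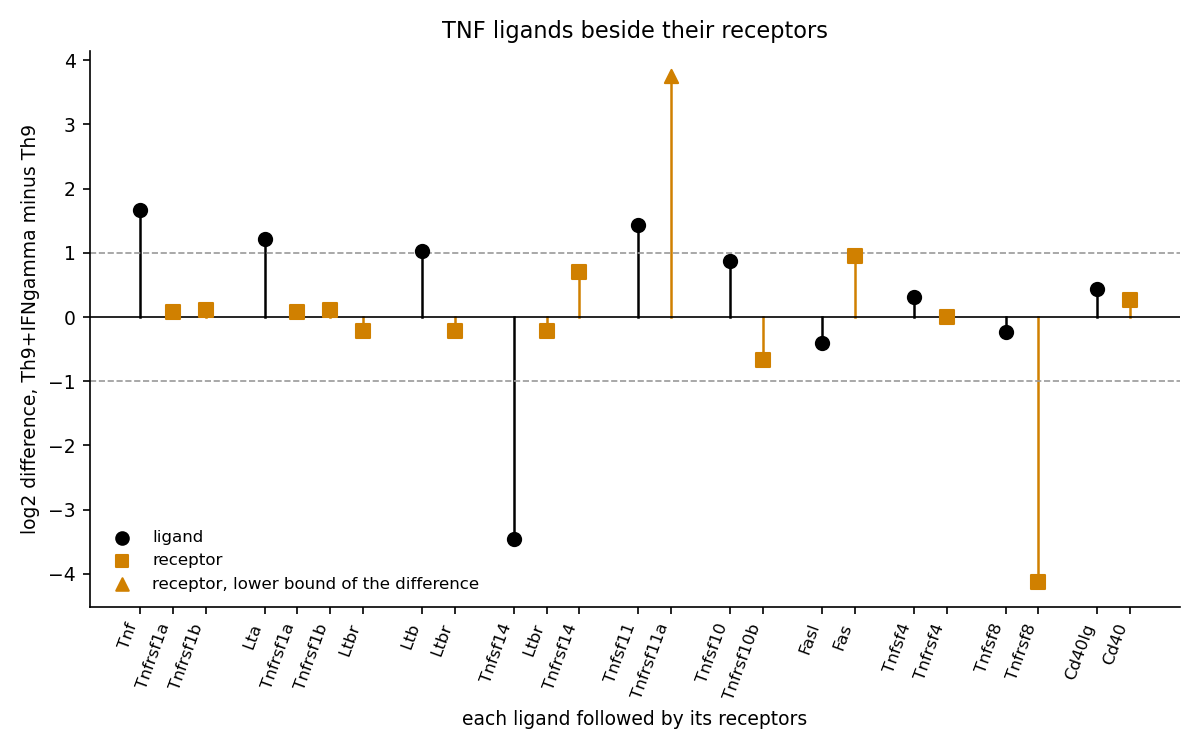
Log2 difference (Th9+IFNgamma minus Th9) of each ligand gene (black circle) followed by the receptor genes of that ligand (orange squares), with dashed lines at 2-fold. The triangle for Tnfrsf11a is a lower bound. Ligand and receptor are both higher for the RANK pair, whereas Tnfsf8 lies near 0 beside a Tnfrsf8 difference of -4.12.

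Downstream of these receptors, 31 of 33 listed genes of TRAF, death domain and NF-kappaB signalling were detected on both arrays, and 29 of them lay within 2-fold (median log2 difference 0.14). Most genes of the array did too, as only 12.6% of all measured genes were at least 2-fold apart. Of the listed NF-kappaB subunit genes, Nfkb1 had no named probe and Rel was detected on neither array, so neither was compared. Nfkbie, which encodes the inhibitor IkappaB epsilon, read 2682 in Th9+IFNgamma cells and 1067 in Th9 cells, 2.51-fold higher. Nfkbia, which encodes IkappaB alpha, read 18861 in Th9+IFNgamma cells and 40803 in Th9 cells, 2.16-fold lower, and it fell just under 2-fold at 1 of 12 settings. These inhibitor genes thus differed in opposite directions. All 8 measured genes of ligand shedding and mRNA decay lay within 2-fold. Among them were Adam17, which encodes the protease that sheds TNF (1030 in Th9+IFNgamma cells and 941 in Th9 cells), and Zfp36, which encodes tristetraprolin, a factor that destabilises Tnf mRNA (777 in Th9+IFNgamma cells and 825 in Th9 cells).

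Of 14 measured genes for factors that act on ligand promoters in activated T cells, 3 passed 2-fold upwards in Th9+IFNgamma cells and 4 passed it downwards (median log2 difference -0.14). Over all measured genes these shares were 5.15% and 7.42%. Among the higher genes were Tbx21, which encodes the T-box factor T-bet (5684 in Th9+IFNgamma cells and 158 in Th9 cells), and Jun, an AP-1 subunit (2042 in Th9+IFNgamma cells and 426 in Th9 cells). Lower were Egr2, an early growth response factor (104 in Th9+IFNgamma cells and 851 in Th9 cells, 8.15-fold, and 5.33-fold with normexp), Batf (3.39-fold), Fos (2.40-fold, and 1.51-fold with normexp) and Junb (2.11-fold, and 1.99-fold with normexp). AP-1 subunit genes therefore differed in both directions. Nfatc1 was 1.59-fold higher by its brighter probe and 2.36-fold by the other.

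Marker genes of the labelled cell type and of other cells were looked up. All 8 measured genes of the CD4 T cell list were detected and within 2-fold, with log2 differences from -0.63 to 0.66. Apart from Cd4, these genes are shared by CD4 and CD8 T cells and do not tell them apart. Cd4 itself read 502 in Th9+IFNgamma cells and 444 in Th9 cells. Of 7 B cell marker genes, 4 were detected on both arrays and all 4 were lower in Th9+IFNgamma cells, within 2-fold. Their summed scaled signal was 932 in Th9+IFNgamma cells and 1324 in Th9 cells. Such a sum compares the arrays, is dominated by its brightest probe and does not measure how many such cells were present. Here that probe was the one for Cd79b (844 in Th9+IFNgamma cells and 1187 in Th9 cells). Cd79a was detected in Th9 cells alone, and Pax5 and Blk were detected on neither array. Of 9 macrophage and dendritic cell marker genes with a probe, 4 were detected on both arrays. Their summed signal was 172 in Th9+IFNgamma cells and 328 in Th9 cells. The gap came from 1 probe of Adgre1 (25.8 in Th9+IFNgamma cells and 186 in Th9 cells), whose second probe was detected on neither array. In the same order, Cd14 read 26.4 and 21.3, Csf1r 34.1 and 34.3, and Xcr1 86.1 and 86.8. Lyz2, Itgax, Fcgr1, Mrc1 and Siglech were detected on neither array. Of 5 NK and innate-like marker genes, 4 were measured, with a median log2 difference of -0.78 and a summed signal of 197 in Th9+IFNgamma cells and 253 in Th9 cells, and Ncr1 was not detected. Klra8 was 4.59-fold lower in Th9+IFNgamma cells (15.6 in Th9+IFNgamma cells and 71.4 in Th9 cells), and Klrb1c was 1.92-fold and Tyrobp 1.54-fold lower. Klrk1, whose probe dominates that sum, was higher (128 in Th9+IFNgamma cells and 90.5 in Th9 cells). Mcpt4, a mast cell protease gene, was detected in Th9 cells alone and was lower by 9.10-fold or more in Th9+IFNgamma cells, while Cpa3, S100a8 and S100a9 were not detected. Cd8a, a CD8 T cell marker gene, was detected on both arrays by all 3 of its probes. Its brightest probe read 1338 in Th9+IFNgamma cells and 1074 in Th9 cells. Hba-a1, a globin gene, read 120 in Th9+IFNgamma cells and 53.4 in Th9 cells. Hbb-bt, another globin gene, lay within 2-fold (56.1 in Th9+IFNgamma cells and 38.5 in Th9 cells). The log2 differences of its 3 measured probes ran from -0.47 to 0.54, so their signs were mixed. The platelet genes Ppbp and Pf4 were detected on neither array. The part of other cells in the ligand differences was not tested, and in RNA from whole cultures fewer cells making a ligand and less mRNA per cell cannot be told apart.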

How the data were processed

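RNA of 1 Th9+IFNgamma and 1 Th9 culture (500 ng each) was labelled with Cy3 and hybridised to 1 array each. Per the file headers, the authors extracted the intensity of each spot with version 10.7.3.1 of Agilent Feature Extraction (10.7 in the submitters' processing notes), which subtracts background within an array. The intensities were deposited unscaled between arrays, with flags of 0 or 1 (other values) for detection and outliers. The authors' deposited table of log2 values equals log2 of the median intensity per probe minus a constant (SD of the offset at most 2.5e-07).

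From these intensities, log2 signals were averaged over a probe's spots without control and outlier spots, less the 75th percentile of the array, which was 632 in Th9+IFNgamma and 567 in Th9. Scaled signals use the common value 599. Probes were named by RefSeq accession against GRCm38.p6 (27050 of 41174 matched 1 gene). A gene stands for its brightest probe detected on both arrays. For a gene detected on 1 array, the bound divides the bright signal by the dim one, or by the lowest detected signal of the dim array where that is higher. No test could be made with a single array for each condition, and the number of arrays limits the precision. Over 143 probes printed several times, the SD of single-spot log2 differences was 0.13. It was 0.26 for probes with a scaled signal below 64, 0.089 from 64 to 1024 and 0.045 at 1024 and above. The software error combines the errors deposited for both arrays. It was nearly the same (0.20) for all bright ligand probes, and it is not a spread over spots. No spot was saturated.

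All ligand genes and probes are named. From the other lists, genes at least 2-fold apart are named (at most 4 in each direction) with the receptors, and a few others (Adam17, Zfp36, Tnfsf9, Nfatc1 and markers) were chosen after their values were seen. One gene that this rule names is not reported here. Members and lists were chosen with earlier results of these data known. The scripts were tested on simulated data. Python 3.11.15, R 4.3.3 and limma 3.58.1 were used.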

Additional observations from a re-analysis of the deposited data

How the results depend on the processing

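Across 11 alternatives, Tnf (log2 difference 1.62 to 1.78), Lta (1.13 to 1.32), Ltb (1.00 to 1.14) and Tnfsf14 (-3.48 to -3.16) kept their direction and stayed at least 2-fold apart. Each of these genes has 1 probe, so settings that change only the probe chosen or the filter on dim probes could not change its value. The authors' table scales the same intensities by nearly the same constants, so it is close to a repeat of the main setting. Tnfsf11 was under 2-fold with normexp only (0.86) and was not measured with a scaled signal of at least 100, so 3 ligands were at least 2-fold higher at each of those settings, against 4 otherwise. The ligand median was 0.36 with normexp and 0.87 with a scaled signal of at least 100, against 0.65. Genes at least 2-fold lower over the whole array numbered 584 with normexp, 465 with that signal minimum and 1788 with no filter on dim probes, against 910, and 1205 were higher with no filter, against 632. Median scaling gave 772 higher and 776 lower genes, against 632 and 910, and moved the median of all genes to 0.11. Without a filter that median was -0.12. Fas passed 2-fold at 2 of 12 settings, Nfkbia at 11 and Junb at 9. Normexp was run on median spot signals, a choice made after seeing that the files hold no mean signal, and so the planned run on mean signals was not made. Both arrays lay on 1 slide, so the slide could not be fitted as a block. No paired analysis was possible because each condition has 1 array. Signals close to background, as for Cd40lg and Tnfsf4, limit the reading of small differences.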
